A study of Homo sapiens with 4 samples.

Results

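The aryl hydrocarbon receptor (AHR) and the genes closest to it were examined in LDOC1-depleted A549 cells with and without a histone H2B that cannot be monoubiquitylated. The set held 6 genes chosen by name: the receptor AHR, its partner ARNT, its repressor AHRR, and the targets CYP1A1, CYP1B1 and TIPARP. Of these, 5 were measured, out of 17687 genes with a named probe set on the arrays. AHRR had no probe set with that single gene symbol and is not analysed here. TIPARP entered the set because it was among the lower genes in this same comparison, so its difference is given as a description with no test. AHR, ARNT, CYP1A1 and CYP1B1 are there for their roles and were tested in the fit over all probe sets.

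A549 is an established human lung adenocarcinoma line. All 4 samples carried a short hairpin RNA against LDOC1 (shLDOC1) and grew in medium with puromycin. In 2 samples the cells also expressed H2BK120R, an H2B in which the lysine that accepts ubiquitin is replaced by arginine, and in 2 they carried the vector (V). Titles and descriptions name the mutant H2BK120R, while the shRNA label of those samples reads shLDOC1-H2BK120, and the titles were followed. According to the design text, depletion of LDOC1 raised monoubiquitylated H2B and the mutant lowered it, so the comparison addresses which transcripts differ when that mark is reduced. Neither an unmutated H2B construct nor cells with intact LDOC1 were analysed here, and no source used here states whether a line was 1 clone or a pool. The labels do not say that replicates were separate cultures, so the spread behind the p-values may be that of technical repeats. In these bulk samples, fewer cells expressing a gene and less RNA per cell cannot be told apart.

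AHR is a ligand-activated transcription factor of the bHLH-PAS family. Without ligand it is held in the cytosol by a chaperone complex with HSP90. With a ligand, such as a polycyclic aromatic hydrocarbon or a metabolite of tryptophan, it enters the nucleus, pairs with ARNT and binds response elements with the core GCGTG. Its targets include CYP1A1 and CYP1B1, monooxygenases that oxidise the ligands, and a pair of feedback genes. AHRR competes with AHR for ARNT, and TIPARP, also called PARP7, attaches single ADP-ribose units to AHR and represses it. In lung epithelium the pathway is known for the response to tobacco smoke.

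The question for this set is whether TIPARP moves with other receptor targets. The bases before the start sites of TIPARP and CYP1A1 are therefore shown. Only the 250 bases up to each start site were searched, which cannot show which genes carry the receptor's element. Sequences are from RefSeq on GRCh38.p14, on the gene's strand, 250 bases up to the start site. Capitals mark GCGTG or its reverse complement CACGC. The TIPARP window is chr3:156674340-156674589 (plus strand), ahead of the first of its 3 listed start sites, and the CYP1A1 window is chr15:74725529-74725778 (minus strand).
TIPARP: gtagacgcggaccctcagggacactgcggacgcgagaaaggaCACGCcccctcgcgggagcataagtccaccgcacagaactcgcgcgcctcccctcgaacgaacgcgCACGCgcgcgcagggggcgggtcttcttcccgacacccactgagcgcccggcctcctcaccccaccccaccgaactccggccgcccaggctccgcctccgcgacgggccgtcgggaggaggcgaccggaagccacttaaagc
CYP1A1: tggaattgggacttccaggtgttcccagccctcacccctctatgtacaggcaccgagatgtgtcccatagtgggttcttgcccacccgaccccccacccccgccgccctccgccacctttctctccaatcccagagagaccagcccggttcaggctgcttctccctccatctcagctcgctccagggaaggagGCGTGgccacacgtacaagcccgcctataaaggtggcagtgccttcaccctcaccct
Both matches before TIPARP lie on the opposite strand, at -208 to -204 and at -142 to -138 from the start site, and the match before CYP1A1 lies at -57 to -53 on the gene's own strand. The windows of AHR and ARNT, and those before the other 2 start sites of TIPARP, held no match. Over all 35116 windows of this length, 32.2% held GCGTG on either strand, so a match in such a window is common. The longer form TNGCGTG, which contains GCGTG, was in 4.52% of windows and in none of those of AHR, ARNT, CYP1A1 and TIPARP.

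TIPARP was lower on both arrays with H2BK120R. Its log2 level was 10.72 and 10.86 with H2BK120R, and 11.44 and 11.33 with the vector. The groups did not overlap: the gap between the higher array with H2BK120R and the lower vector array was 0.47, against 0.14 and 0.11 between the arrays within each group. The means were 10.79 ± 0.10 with H2BK120R and 11.39 ± 0.08 with the vector (SD, n = 2 each). The difference was -0.60 ± 0.15 (limma's standard error), a change of -33.8% on the linear scale. The 4 differences between single arrays of the groups ran from -0.72 to -0.47. Among the 9298 genes with a mean level at or above the median of all probe sets (6.41), 120 had a difference at least as low, TIPARP included, which is 1.29%. Since TIPARP was chosen from this contrast, these values say where it lies and are no evidence for a change.

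AHR itself was higher with H2BK120R, the opposite direction to TIPARP. Its level was 15.08 and 15.15 with H2BK120R, and 14.82 and 14.80 with the vector, so the groups did not overlap. The difference was 0.31 ± 0.10 (SE), with a 95% confidence interval of 0.08 to 0.53. It did not pass the threshold over all probe sets (limma adjusted p = 0.705, unadjusted p = 0.0124). Of the 4 tested members AHR was the 1 with an unadjusted p under 0.05, a limit that 6.70% of the 21448 probe sets reached. Of those probe sets, 0% had a limma adjusted p under 0.05.

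ARNT, the partner of AHR on DNA, was at 12.76 and 12.68 with H2BK120R and at 12.63 and 12.66 with the vector. The arrays with H2BK120R lay just above the others, by less than the gap between themselves. The difference was 0.08 ± 0.13 (SE; 95% interval -0.20 to 0.35, limma adjusted p = 0.925).

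CYP1B1 was at 13.14 and 13.15 with H2BK120R, and at 12.99 and 13.17 with the vector. The vector arrays lay on either side of those with H2BK120R, so the groups overlapped. The difference was 0.07 ± 0.13 (SE; interval -0.21 to 0.34, limma adjusted p = 0.937), and it was -0.03 without vector replicate 1. An interval of this width holds small changes in both directions. Whether CYP1B1 differs from TIPARP was not tested, since TIPARP was chosen from this contrast.

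CYP1A1, the target most used to read receptor activity, gave a dim signal. It was at 3.40 and 3.70 with H2BK120R and at 3.39 and 3.24 with the vector, below the lower quartile of all probe sets (4.17). Its groups lay 0.01 apart at the nearest, and the difference was 0.24 ± 0.30 (SE; interval -0.42 to 0.89, limma adjusted p = 0.893). Without detection calls, whether the transcript was above background cannot be told from these values.

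In 4 of the 5 measured members the groups did not overlap, 3 higher and 1 lower, where 36.5% of all probe sets were separated, 18.6% with H2BK120R higher and 17.9% with it lower. TIPARP counts among them by choice, and the separations of ARNT and CYP1A1 were small beside their standard errors.

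**Figure D1:**
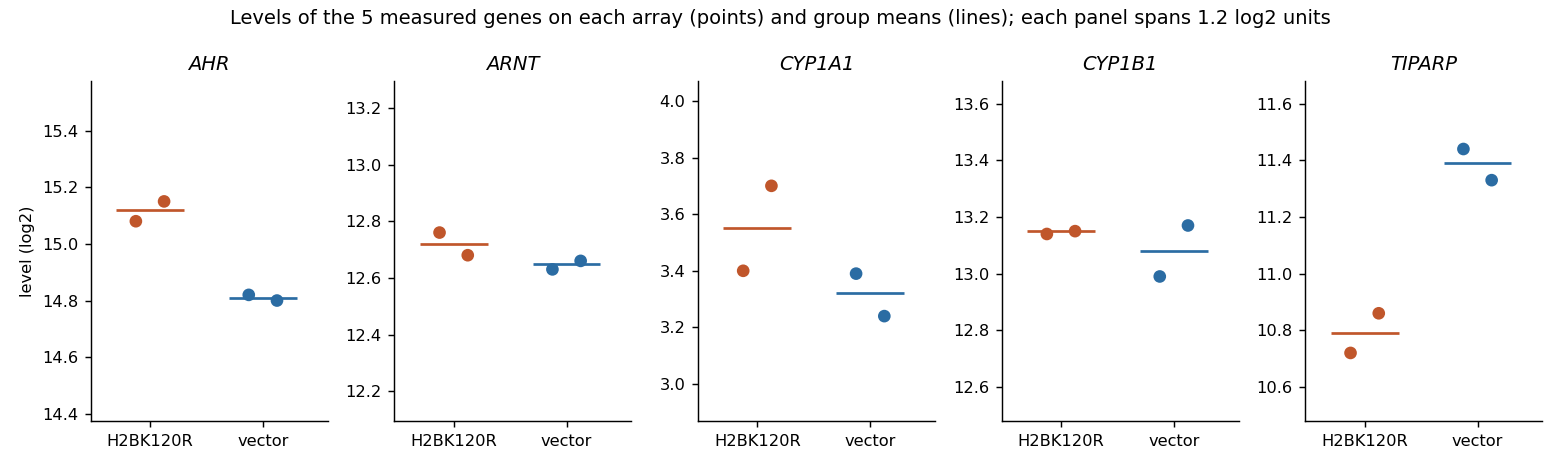
Log2 level of AHR, ARNT, CYP1A1, CYP1B1 and TIPARP on each of the 4 arrays (points, orange for H2BK120R and blue for vector), with group means as lines. Every vertical axis spans the same range around its gene, so distances can be compared: TIPARP is separated downward with H2BK120R by 0.47, AHR is separated upward, and the vector arrays of CYP1B1 lie on either side of the others.

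The other targets of the receptor did not share 1 direction. CYP1A1, CYP1B1 and 15 further targets made 17, of which 14 were measured: 7 had a positive and 7 a negative difference, and the median was 0.02. Without vector replicate 1 the median was -0.03 with 9 lower, and without vector replicate 2 it was 0.16 with 6 lower. Over all probe sets 49.4% were lower and the median was 0.00. By limma none of the 14 had an adjusted p under 0.05. An unadjusted p under 0.05 was found for 1 of the 14, and for 6.70% of all probe sets. The 1 target was CYP2S1, a P450 enzyme, at 13.74 and 14.10 with H2BK120R and 13.25 and 13.65 with the vector. Its difference was 0.47 ± 0.16 (SE; limma adjusted p = 0.722), opposite in sign to that of TIPARP.

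NQO1, a quinone reductase driven both by AHR and by NRF2, was at 15.79 and 15.84 with H2BK120R and at 15.59 and 15.86 with the vector. These groups overlapped, with a difference of 0.09 and an interval of -0.15 to 0.33. ALDH3A1, an aldehyde dehydrogenase with the same pair of regulators, differed by 0.22 (interval -0.06 to 0.49). NFE2L2, which encodes NRF2, was at 11.73 and 11.68 against 11.49 and 11.95, a difference of -0.02 (interval -0.39 to 0.36). The amino acid transporter SLC7A5 differed by -0.10 (-0.30 to 0.11), the EGFR ligand EREG by -0.21 (-0.57 to 0.15) and the cyclooxygenase PTGS2 by 0.05 (-0.37 to 0.47). For 10 of the 14 targets the whole 95% interval lay above -0.60. That is the value of TIPARP, which was chosen from this contrast and has a standard error of 0.15. The count therefore does not show that a target differs from TIPARP. The interval reached -0.60 for GSTA1, GSTA2, STC2 and XDH, and 3 of these 4 had a mean level below the median of all probe sets. CYP1A1 and CYP1A2, with intervals above -0.60, were dim too, at mean levels of 3.43 and 3.92. GSTA1 and GSTA2 are near-identical copies, so their probe sets may share signal. The difference between TIPARP and the other targets was not tested, since TIPARP was chosen for its value.

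**Figure D2:**
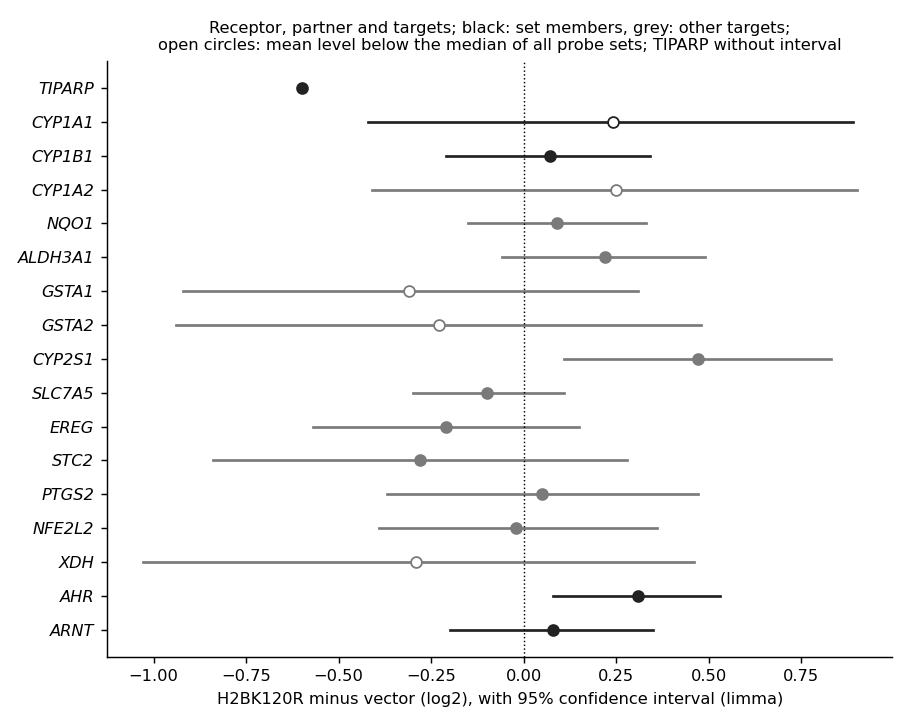
Difference of H2BK120R minus vector (log2) for the 5 measured members (black) and 12 other targets (grey), with limma's 95% confidence interval as bars and open circles for genes dimmer than the median probe set. TIPARP, drawn without an interval because it was chosen from this contrast, sits at -0.60, and the other targets scatter on both sides of 0.

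**Figure D3:**
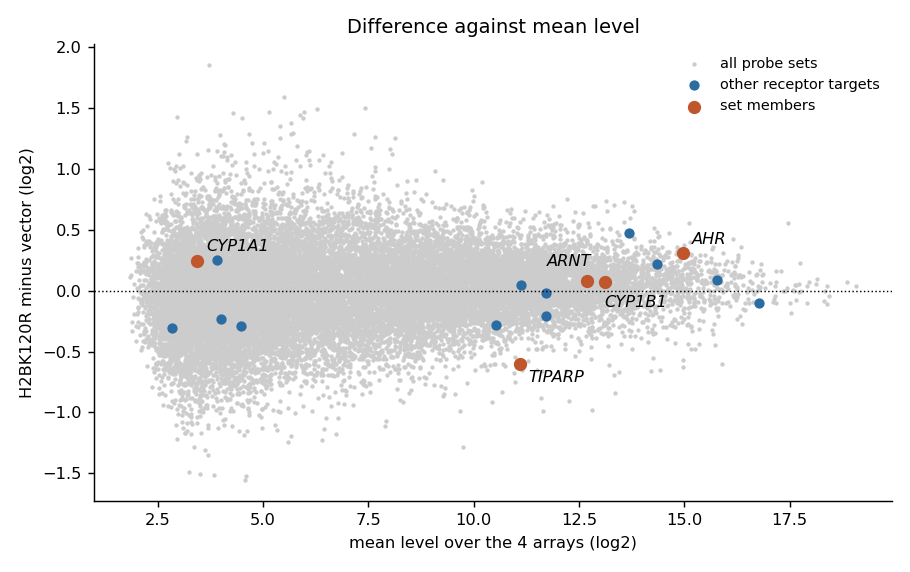
Difference of H2BK120R minus vector against the mean level over the 4 arrays (both log2) for all probe sets (grey), the 12 other targets (blue) and the 5 members (orange). The spread narrows toward bright probe sets, where AHR and TIPARP lie toward opposite edges of the grey cloud, while CYP1A1 lies in its wide dim end.

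None of the 5 genes that ran most like TIPARP over the 4 arrays was a receptor target from these lists. Likeness was the distance between the 4 log2 values after each gene's own mean was taken away, over the 9298 brighter genes. The nearest were CACHD1, a modulator of calcium channels (distance 0.03), and TFR2, a transferrin receptor of iron sensing (0.08). COL5A1, a collagen V chain (0.09), SNRPD2, an Sm protein of the spliceosome (0.10), and HAUS8, a subunit of the augmin complex of the spindle (0.11), followed. CACHD1 was at 6.28 and 6.42 with H2BK120R and 6.96 and 6.88 with the vector, a difference of -0.57. Among the targets EREG came closest, at a distance of 0.44 and rank 976 of 9297. SLC7A5 followed at a distance of 0.53 and rank 1986, CYP1B1 was at rank 4599 and NQO1 at 5288. AHR, which is the receptor and not a target, was at 7495. With 4 arrays many genes lie near any pattern, and these ranks carry no test. The distance also rests on the values for which TIPARP was chosen. The listed targets are few among 9297 genes, so their absence from the nearest 5 was likely from the outset.

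**Figure D4:**
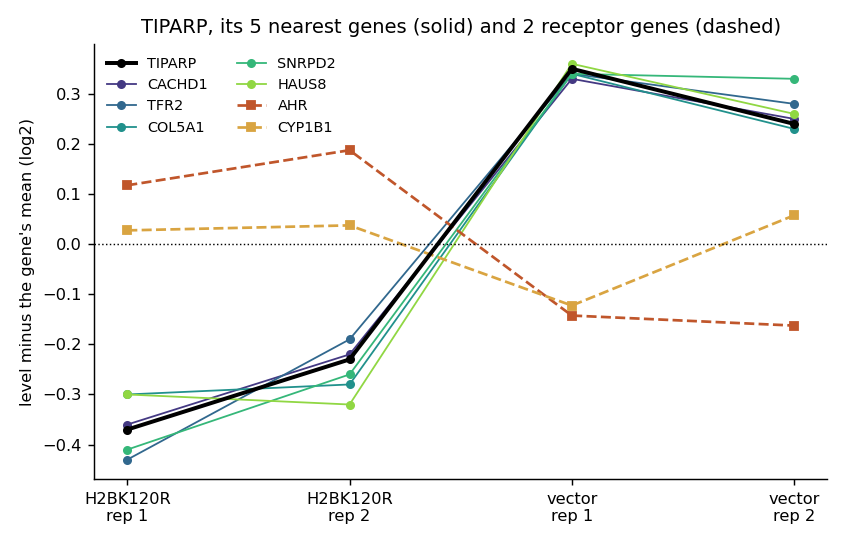
Level minus the gene's own mean (log2) on each array for TIPARP (black), the 5 genes nearest to it (solid colours) and AHR and CYP1B1 (dashed); lines only join the values of a gene. The solid lines run from below 0 with H2BK120R to above 0 with the vector, AHR runs the other way and CYP1B1 stays near 0.

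The rest of the pathway was read from 8 lists ordered by role, with 85 genes, of which 73 were measured. By limma 0 had an adjusted p under 0.05. At an unadjusted p under 0.05 there were 7 of 73, 4 higher and 3 lower with H2BK120R, where 3.62% and 3.08% of all probe sets reached it in those directions. This count rose when vector replicate 2 was left out and fell when any other array was. The count over all probe sets moved the same way each time. Whether the shifts differ in size between the pathway genes and all probe sets was not tested.

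Of the chaperones that hold unliganded AHR, 3 of 4 were measured. HSP90AB1, the constitutive cytosolic HSP90, averaged 16.07 ± 0.10 with H2BK120R and 15.85 ± 0.11 with the vector (SD, n = 2 each), a difference of 0.22 ± 0.10 (SE; limma adjusted p = 0.745). HSP90AA1, the inducible form, differed by 0.22 ± 0.15 with overlapping groups, and the cochaperone PTGES3 by -0.01. The median of these 3 was 0.22, but -0.04 without vector replicate 1, where 2 of 3 were lower. Among the bHLH-PAS relatives, which include the other partners of ARNT, 7 of 12 measured genes had a negative difference, and the list median was -0.03, or 0.04 with 4 lower without H2BK120R replicate 2. The hypoxia factor EPAS1 had the smallest p of these at -0.26 ± 0.13 (limma adjusted p = 0.758), and HIF1A, which competes for ARNT under hypoxia, differed by 0.06 ± 0.10.

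Enzymes of the tryptophan route to receptor ligands, including some that break such metabolites down, were mixed. Positive differences were found for 5 of 8 measured genes, and the list median was 0.21. Without vector replicate 1 the median was -0.08 and 6 of 8 were lower, and without vector replicate 2 it was 0.48. IDO1, which opens the kynurenine route, was at 4.32 and 3.91 with H2BK120R and at 2.97 and 3.71 with the vector. The difference of 0.78 ± 0.34 (SE; limma adjusted p = 0.745) rests on dim signal, with vector replicate 1 the lowest array. KYNU, which cleaves kynurenine, was at 11.73 and 12.02 against 11.43 and 11.94, and these groups overlapped.

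Coregulators that AHR recruits were higher for 10 of 12 measured genes, with a median of 0.15. By comparison, 49.4% of all probe sets were lower. RELA, the NF-kB subunit that binds AHR, was at 12.27 and 12.48 against 11.87 and 12.10, a difference of 0.39 ± 0.15 (SE; limma adjusted p = 0.739). The coactivators NCOA2 and CREBBP differed by 0.32 ± 0.16 and 0.27 ± 0.14, each without overlap between groups. In this direction 18.6% of all probe sets were separated. The 2 lower genes were SMARCA4, at -0.50 ± 0.35, and CALCOCO1, at -0.03 ± 0.19, both with overlapping groups. The median of this list was 0.01 without vector replicate 1, with 5 genes lower, and 0.24 without vector replicate 2.

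Among 5 genes for the ubiquitin ligases that act with or on AHR, 2 were lower with H2BK120R at an unadjusted limma p under 0.05. Of all probe sets, 3.08% reached that limit in that direction. STUB1, the ligase CHIP that ubiquitylates clients of HSP90, was at 9.13 and 8.87 with H2BK120R and at 9.62 and 9.42 with the vector. The groups did not overlap, a separation that 17.9% of all probe sets showed in this direction. The difference was -0.52 ± 0.20 (SE; limma adjusted p = 0.739). RBX1, the RING subunit of cullin ligases, differed by -0.80 ± 0.34 (limma adjusted p = 0.745). Its arrays ranged from 8.44 to 9.39 with H2BK120R and from 9.23 to 10.20 with the vector, so the groups overlapped. CUL4B, the cullin with which ligand-bound AHR forms a ligase, differed by 0.09 ± 0.15.

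TIPARP was also set beside its own enzyme family. All 16 other PARP family genes were measured, 11 with a positive and 5 with a negative difference (median 0.17). Over all probe sets 49.4% were lower and the median was 0.00. Of the 16 genes, 5 were dimmer than the median probe set. The median of the 16 was 0.05 without vector replicate 1, with 7 lower, and 0.10 without H2BK120R replicate 2. PARP15 alone of the 16 had an unadjusted limma p under 0.05, a limit that 6.70% of all probe sets reached. It was at 3.71 and 3.84 with H2BK120R and 3.14 and 3.08 with the vector. The difference was 0.67 ± 0.29 (SE, limma adjusted p = 0.745) on a probe set below the lower quartile. PARP14, a brighter mono-ADP-ribosyltransferase, was at 9.95 and 9.83 against 9.66 and 9.39, a difference of 0.37 ± 0.18. The lowest difference in the family was that of PARP11, -0.37 ± 0.30, with overlapping groups. PARP1, the main poly-ADP-ribose polymerase of DNA repair, differed by -0.07 ± 0.17.

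Enzymes that remove ADP-ribose were lower with H2BK120R for 5 of 5 measured genes, with a median of -0.35. Among all probe sets, 49.4% were lower. MACROD1, which is known to remove the mark that TIPARP places on AHR, was at 5.69 and 5.77 with H2BK120R and at 6.38 and 5.77 with the vector. The difference of -0.35 ± 0.31 (SE; limma adjusted p = 0.850) rests on vector replicate 1, since vector replicate 2 was level with H2BK120R replicate 2. MACROD2 was at 3.03 and 3.45 against 3.89 and 4.14, a difference of -0.78 ± 0.31 (limma adjusted p = 0.745). Without vector replicate 1 the median of this list was -0.10 and 4 of 5 were lower, and without vector replicate 2 it was -0.65. Of the 5 genes, 3 were dimmer than the median probe set.

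**Figure D5:**
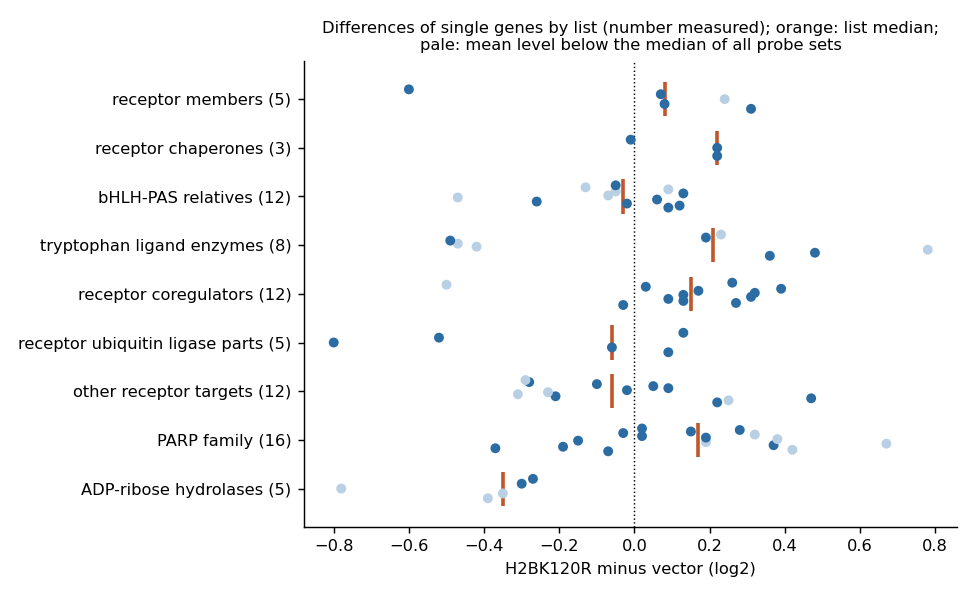
Difference of H2BK120R minus vector (log2) for each measured gene of the set and of the 8 pathway lists (points; pale where the mean level is below the median of all probe sets), with each list's median in orange. TIPARP is the lowest of the 5 members at -0.60, the list medians run from -0.35 for ADP-ribose hydrolases to 0.22 for chaperones (-0.04 without vector replicate 1), and single genes scatter on both sides of 0 in each list but the hydrolases.

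Measured genes with GCGTG in any of their promoter windows numbered 6574, and their median difference was 0.02, with 47.3% of them below 0. The 7676 without it had a median of -0.01, with 50.5% below 0. For TNGCGTG the shares lower were 50.8% of 993 genes with it and 48.9% of 13257 without. Such windows differ in base composition too, and its part was not tested.

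Array medians lay between 6.40 and 6.43, and correlations between arrays between 0.990 and 0.994. The label was checked by markers: 6 of 7 measured markers of A549 and lung adenocarcinoma (KRT8, KRT18, KRT7, AKR1C1, AKR1B10 and ALDH1A1) were brighter than the median probe set, and EPCAM was not. None of the markers of leukocytes (4 measured), endothelium (5) or hepatocytes (5) was that bright, and of fibroblasts COL1A2 was, at 8.26. The mean level over hepatocyte markers was 3.45 to 3.70 with H2BK120R and 3.79 to 4.09 with the vector, and over leukocyte markers 4.53 to 4.92 and 4.31 to 4.76. Their part in the results was not tested. The genes PDCD6 and EXOC3, neighbours of AHRR, differed by -0.11 and -0.10, while TIPARP-AS1 and CYP1B1-AS1 had no probe set by symbol.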

How the data were processed

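RNA from 4 cultured samples was profiled on a whole-transcript array. The deposited values are log2 levels that the authors normalized between arrays before deposit. The base is inferred from the range of 1.56 to 19.15 and the normalization from near-equal medians, and the submitters' processing notes name MAS5 without a version. No source used here gives the background correction, probe summary or detection calls. Gene names came from GEO's platform annotation and were checked by gene ID against RefSeq (GRCh38.p14). Of 21448 probe sets, 17709 had 1 symbol, 0 several and 3739 none, and the probe set with the highest mean stood for a gene.

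H2BK120R was compared with vector, 2 arrays each from the sample titles, with limma 3.58.1 under R 4.3.3 (eBayes with a mean-variance trend, two-sided, Benjamini-Hochberg over all probe sets), with 2 residual and 8.95 prior degrees of freedom. An exact permutation test of 2 against 2 arrays cannot go below p = 0.333. The fit was tested on simulated data. Members, lists and tests were chosen with earlier results of these data known. In each pathway list, genes with an unadjusted p under 0.05 or else the smallest p were named, plus the 5 genes nearest to TIPARP. Further genes were named for their role after their values were seen. Alternatives were other normalizations, filters on dim probe sets, variance settings, the replicate number as a block, a gene's mean over probe sets, and leaving out each array. The number of arrays limits the precision.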

Additional observations from a re-analysis of the deposited data

How the results depend on the processing

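In every alternative run for them, 0 of all probe sets, of the members other than TIPARP and of the pathway genes had a limma adjusted p under 0.05. The average over a gene's probe sets was not run for the count over all probe sets, and both filters on dim probe sets removed CYP1A1. Unadjusted p-values under 0.05 numbered 1437 over all probe sets, 903 without the dimmest 50%, where fewer were tested, and 495 to 2427 with an array left out. For the pathway genes it was 7, 2 to 18 with an array left out, and 4 without the dimmest 25% or 50% or without the variance trend. The TIPARP difference ran from -0.67 to -0.53 with an array left out and was -0.63 after quantile normalization. AHR stayed between 0.27 and 0.34 with an array left out. CYP1B1 turned from 0.07 to -0.03 without vector replicate 1 (range to 0.16 with another array left out), and the cause was not tested. With the replicate block, the TIPARP difference was -0.60 and the pathway count 10. Deviations of same-numbered arrays correlated at 0.14, and with 2 pairs and no label for a shared day the numbers were not taken as pairs. In fits with 1 array in a group, that array was taken to vary as the other group does. A change of pseudocount does not apply to log2 values. Dim signal limits CYP1A1, IDO1, PARP15 and MACROD2.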
